A study of Rattus norvegicus with 16 samples.

Results

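The annexins are a family of proteins that bind the phospholipids of cell membranes when calcium rises. The 8 annexin genes described here are Anxa1, Anxa2, Anxa3, Anxa4, Anxa5, Anxa6, Anxa7 and Anxa11, found on the array by their gene symbols. The array annotation gave them 14 probe sets with a single symbol, out of 31042 probe sets without controls. Of these, 10 probe sets reached the minimum level for testing, and every gene had at least 1 tested probe set. Where a gene had several, the one with the largest average signal over all arrays stands for it and is called the lead probe set.

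The tissue was the initial segment of the epididymis, the stretch nearest the testis, from adult male Sprague-Dawley rats. All 16 arrays came from operated males of this strain: 4 from sham-operated sides and 4 each from sides whose efferent ducts had been tied off for 6, 12 or 18 h. Ligation stops testicular fluid from reaching the epididymis, and per the labels the sham operation was made on the opposite side of the same animals. The labels do not say which arrays share an animal, nor how long after surgery the sham tissue was taken, and the 1 sham group serves every comparison. The replicates are called biological, but no label ties a number to an animal, so each p-value measures only the spread between these arrays.

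Annexins share a core of repeats that carries the calcium sites, and they differ in the tail before it, which binds partner proteins. Several take S100 proteins as partners, and they take part in membrane repair, in exocytosis and endocytosis, and in the linking of membranes to actin. Anxa1 is also a secreted protein that dampens inflammation through formyl peptide receptors, and Anxa5 is widely used as a probe for phosphatidylserine on dying cells. Epithelia that secrete and absorb, as the epididymis does, carry several family members together.

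The values are log2 intensities normalized by the submitters, between 2.22 and 15.1, and 13410 probe sets were tested. Replicates 1 and 2 stood apart from replicates 3 and 4: with the group in the model, 36.9% of the tested probe sets differed between these pairs at an adjusted p under 0.05. Within replicates 3 and 4, the spiked dap control read 7.83 to 8.57 on the sham and 6 h arrays and 2.22 on the 12 and 18 h arrays, so there the later times cannot be told apart from a second set of arrays. The array labelled 18 h replicate 4 also stood apart. Over the 1371 probe sets called at 18 h without it, its median change from sham was 0.664 of that of the other 18 h arrays, against 0.94 to 0.972 for each of those in turn. Values within each pair of replicates and without this array are therefore given beside the results. Because the array was singled out by its weak 18 h change, calls gained or strengthened without it are not independent support.

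Calls were made for some of the 8 genes and not for others, and differences between members were not tested. Against sham, 2 of the 8 genes, Anxa1 and Anxa2, were called higher at 18 h, and none was called lower. At 6 h and at 12 h no annexin was called. A call means an adjusted p under 0.05 in limma, with Benjamini-Hochberg adjustment over all 13410 tested probe sets. Of all tested probe sets, 10.2% were called at 18 h and 5.2% were called higher, so 2 calls among 8 genes have to be read against that. The background was 0.283% at 6 h and 7.86% at 12 h. At an unadjusted p under 0.05, 0 annexins passed at 6 h, 2 at 12 h and 4 at 18 h. The median difference of the 8 genes from sham was -0.02 at 6 h, -0.03 at 12 h and 0.18 at 18 h on the log2 scale, against 0.02, 0.02 and 0.01 over all tested probe sets.

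**Figure D1:**
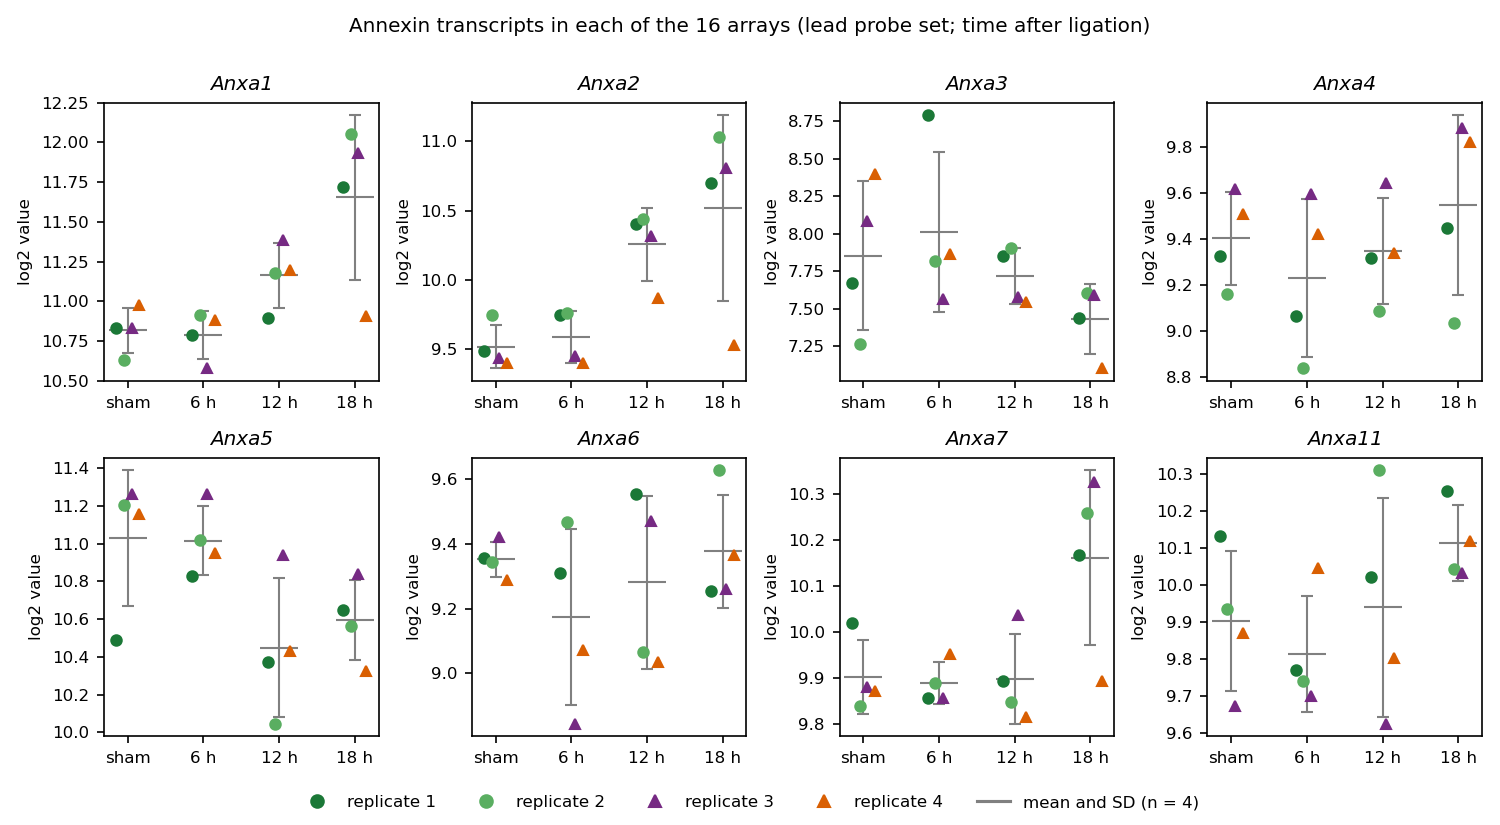
Log2 value (y axis, a separate scale for each gene) of the lead probe set of each annexin in sham tissue and at 6, 12 and 18 h after ligation (x axis). Each point is 1 array, circles for replicates 1 and 2 and triangles for replicates 3 and 4, and the grey bar is the mean ± SD of 4 arrays. For Anxa1, Anxa2 and Anxa7 the 18 h replicate 4 array lies below the rest of the 18 h arrays, at 10.91, 9.53 and 9.89.

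Anxa2 binds S100a10 in a complex that sits under the plasma membrane, and at the cell surface it holds plasminogen and its activator together. Its lead probe set (1367584_at) read 9.49, 9.75, 9.44 and 9.40 in sham replicates 1 to 4. The 6 h arrays read 9.74, 9.76, 9.45 and 9.40, over nearly the same range as sham. The 12 h arrays read 10.40, 10.44, 10.31 and 9.87, all above every sham and 6 h array. The 18 h arrays read 10.70, 11.03, 10.81 and 9.53, so 3 of them were the highest of the series and replicate 4 fell back among sham.

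At 18 h, Anxa2 was 1.00 ± 0.25 (SE, n = 4 arrays in each group) higher than sham on the log2 scale, a 2.00-fold difference with an adjusted p of 0.0227. Without the 18 h replicate 4 array the difference was 1.33 (adjusted p = 0.000121). Within replicates 1 and 2 it was 1.25 (adjusted p = 0.0103), and within replicates 3 and 4 it was 0.75 (adjusted p = 0.307). With the array set as a block it was 1.12 (adjusted p = 0.0174). The call was lost when any 1 of sham replicates 3 and 4 or 18 h replicates 1, 2 and 3 was left out, with adjusted p from 0.0593 to 0.0717.

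At 12 h, Anxa2 was 0.74 ± 0.25 higher than sham, and although the groups did not overlap this was not called (adjusted p = 0.104). It was called without 18 h replicate 4, an array of another group that adds to the shared spread (adjusted p = 0.0065), and within replicates 1 and 2 (0.80, adjusted p = 0.0445). Without 12 h replicate 2, the highest 12 h array, it was 0.68 and not called (adjusted p = 0.212). Within replicates 3 and 4 it was 0.67 (adjusted p = 0.401). With the pair of replicates as a block it passed (adjusted p = 0.0364), and with the array set as a block it did not (0.86, adjusted p = 0.0625). On 12 h replicates 1 and 2 the summed intensity of initial segment markers was 15300 and 11900, against 34500 to 60300 in sham. That of macrophage markers was 4630 and 5490, against 1780 to 2950 in sham. On 12 h replicates 3 and 4 the initial segment sums were 55700 and 51000 and the macrophage sums 2010 and 1050. Anxa2 read 10.31 and 9.87 on those 2 arrays, against 10.40 and 10.44 on replicates 1 and 2. The part of these marker differences in the Anxa2 values was not tested. The gene table holds 8 Anxa2 pseudogenes, and whether the probe set also reads them was not tested. The second Anxa2 probe set, 1392250_at, lay at the lowest value of 2.22 on all 16 arrays and was not tested.

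Anxa1, the anti-inflammatory family member and a substrate of the EGF receptor kinase, rose by 18 h. Its single probe set (1367614_at) read 10.83, 10.63, 10.84 and 10.97 in sham and 10.79, 10.91, 10.58 and 10.88 at 6 h. The 12 h arrays read 10.89, 11.18, 11.39 and 11.20, with replicate 1 still inside the sham range. The 18 h arrays read 11.72, 12.06, 11.94 and 10.91, and again 3 were the highest of the series while replicate 4 lay just under the highest sham array.

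Anxa1 was 0.84 ± 0.20 (SE, n = 4 arrays in each group) higher at 18 h than in sham, a 1.78-fold difference with an adjusted p of 0.0167 and a 95% interval of 0.40 to 1.27 on the log2 scale. At 12 h it was 0.35 above sham and not called (adjusted p = 0.394). Without 18 h replicate 4 the 18 h difference was 1.08 (adjusted p = 0.000192). Within replicates 1 and 2 it was 1.15 (adjusted p = 0.0174), and within replicates 3 and 4 it was 0.52 (adjusted p = 0.388). With the array set as a block it was 0.90 (adjusted p = 0.0452). That fit again rests on replicates 1 and 2 for the step to the later times. Leaving out sham replicate 2, 18 h replicate 2 or 18 h replicate 3 took the adjusted p to 0.0515, 0.0537 and 0.0573.

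The starts of these genes are shown because Anxa1 and Anxa2 were the members called. Both sequences are the 250 bases before the RefSeq start, on the coding strand, from the rat assembly GRCr8. Capitals mark matches to 7 motifs searched on both strands: the TATA box as TATAAA, the AP-1 site as TGANTCA, the STAT site as TTCNNNGAA, the C/EBP site as TTGCNNAA, the NFKB site as GGNNNTTCC, the SP1 site as GGGCGG and an ETS core as AGGAAG. Anxa1 lies at chr1:227303733-227303982 on the minus strand, and Anxa2 at chr8:78986002-78986251 on the plus strand.
Anxa1: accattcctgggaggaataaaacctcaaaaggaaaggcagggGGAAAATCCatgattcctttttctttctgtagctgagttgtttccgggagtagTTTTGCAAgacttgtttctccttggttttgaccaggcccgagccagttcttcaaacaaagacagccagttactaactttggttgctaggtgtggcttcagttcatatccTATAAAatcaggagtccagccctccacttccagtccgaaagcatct
Anxa2: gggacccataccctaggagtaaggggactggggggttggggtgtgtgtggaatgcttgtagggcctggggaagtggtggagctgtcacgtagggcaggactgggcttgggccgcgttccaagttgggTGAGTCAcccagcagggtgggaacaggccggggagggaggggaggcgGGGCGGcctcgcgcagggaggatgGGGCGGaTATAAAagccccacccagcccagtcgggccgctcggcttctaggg
Both hold TATAAA, from base -46 in Anxa1 and from base -45 in Anxa2, counted back from the start. Anxa1 further holds a C/EBP match at -155 to -148 and an NFKB match at -208 to -200. Anxa2 holds an AP-1 match at -123 to -117 and 2 SP1 matches from -76 and -52. No matches overlap one another in these 2 windows.

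Promoters of 7 of the 8 genes were in the sequence table, all but Anxa6. TATAAA was found in 2 of the 7, those of Anxa1 and Anxa2, and in 12.9% of all 33469 promoters of the same length. The AP-1 letters were in Anxa2 alone of the 7 and in 6.34% of all promoters, and the C/EBP letters were in Anxa1 alone and in 9.22% of all. NFKB matches stood in Anxa1, Anxa4, Anxa5 and Anxa11 and in 15.4% of all promoters. SP1 letters, present in 30.5% of all promoters, were in Anxa2, Anxa3, Anxa4, Anxa5 and Anxa11. The ETS core stood in Anxa3 and Anxa11 (29.5% of all promoters), the STAT letters in none of the 7 (7.67% of all), and Anxa7 held none of the 7 motifs. A match describes the letters in this window and is not a bound site.

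The changes of Anxa1 and Anxa2 between ligation times were also measured. Both were higher at 18 h than at 6 h, Anxa1 by 0.86 (adjusted p = 0.0175) and Anxa2 by 0.93 (adjusted p = 0.0385). The Anxa2 call was lost when any 1 of sham replicates 3 and 4, the 6 h arrays or 18 h replicates 1, 2 and 3 was left out (adjusted p from 0.0503 to 0.109). The Anxa1 call was lost without 6 h replicate 3 or 18 h replicate 2 or 3 (adjusted p of 0.0589, 0.0539 and 0.0577). In that comparison 7.88% of tested probe sets were called and 3.54% were higher at 18 h. Within replicates 3 and 4 these differences were 0.69 for Anxa1 (adjusted p = 0.291) and 0.74 for Anxa2 (adjusted p = 0.344). From 6 to 12 h, Anxa2 values were 0.67 higher with no overlap between the groups, which did not pass (adjusted p = 0.178). In that comparison 4.28% of tested probe sets were called and 0 of the 8 annexins. From 12 to 18 h, 0% of tested probe sets were called, although 877 lay at an unadjusted p under 0.05, and none of the 8 annexins was called. Without 18 h replicate 4, Anxa1 was called there, 0.74 higher at 18 h than at 12 h (adjusted p = 0.0423). The order of the group means was sham, 6 h, 12 h and 18 h for Anxa2 and 6 h, sham, 12 h and 18 h for Anxa1, and no neighbours in either order differed at an adjusted p under 0.05.

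**Figure D2:**
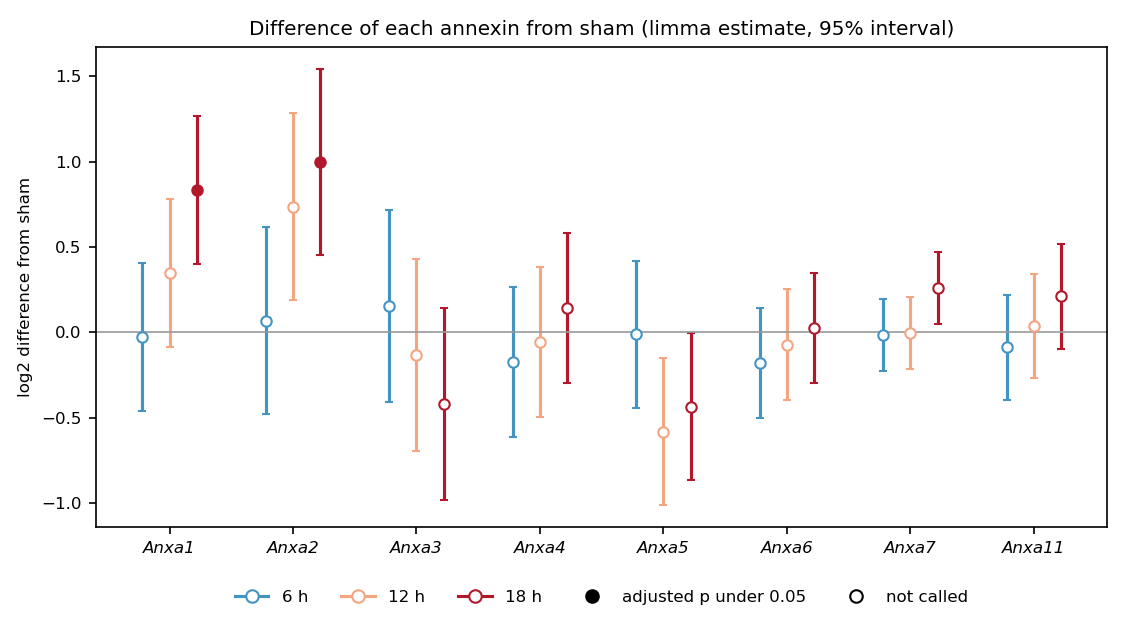
Difference from sham (y axis, log2 scale) of each annexin's lead probe set at 6 h (blue), 12 h (orange) and 18 h (red), with the 95% interval of the limma fit, 4 arrays in each group. Filled points have an adjusted p under 0.05: they are Anxa1 and Anxa2 at 18 h, at 0.84 and 1.00, and all other points are open.

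Anxa7 and Anxa11 have the longest tails of the family. Anxa7, first known as synexin for its action on secretory granules, binds sorcin, and Anxa11 binds the calcium sensor Pdcd6 and S100a6. The lead probe set of Anxa7 (1368143_at) read 10.02, 9.84, 9.88 and 9.87 in sham, 9.86, 9.89, 9.86 and 9.95 at 6 h, and 9.89, 9.85, 10.04 and 9.81 at 12 h. At 18 h it read 10.17, 10.26, 10.33 and 9.89. Replicates 1, 2 and 3 at 18 h lay above every other array, and replicate 4 lay within sham.

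The 18 h difference of Anxa7 from sham was 0.26 ± 0.10 and was not called (adjusted p = 0.12). Without 18 h replicate 4 it was 0.35 and passed (adjusted p = 0.0203). The second Anxa7 probe set (1368142_at) read 6.39, 5.60, 5.45 and 5.26 in sham and 6.23, 6.34, 6.05 and 5.44 at 18 h, a difference of 0.34 ± 0.22 that was not called (adjusted p = 0.415). On this probe set sham replicate 1 was above every 18 h array. The gene table holds 4 Anxa7 pseudogenes, and whether either probe set reads them was not tested.

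Anxa11 (1388445_at) read 10.13, 9.94, 9.67 and 9.87 in sham and 10.26, 10.04, 10.03 and 10.12 at 18 h. The 4 arrays at 18 h lay close together, but sham replicate 1 was above 3 of them. The difference of 0.21 ± 0.14 was not called (adjusted p = 0.442). At 6 and 12 h, Anxa11 ranged from 9.63 to 10.31 and differed from sham by -0.09 and 0.04.

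Anxa5 had lower values at the later times, short of a call. It read 10.49, 11.20, 11.26 and 11.16 in sham (1386862_at) and 10.83, 11.02, 11.27 and 10.95 at 6 h. The 12 h arrays read 10.37, 10.05, 10.94 and 10.43, and the 18 h arrays read 10.65, 10.56, 10.84 and 10.33. Sham replicate 1 lay far below the other sham arrays and overlapped the later times, while sham replicates 2, 3 and 4 lay above every 12 and 18 h array.

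The difference of Anxa5 from sham was -0.58 ± 0.20 at 12 h (adjusted p = 0.103) and -0.43 ± 0.20 at 18 h (adjusted p = 0.219), and neither was called. Without sham replicate 1 the 12 h difference was -0.76 (adjusted p = 0.0205), and without 12 h replicate 3 it was -0.75 (adjusted p = 0.0299). Without 12 h replicate 2, the lowest array, it was -0.45 (adjusted p = 0.257). Within replicates 1 and 2 it was -0.64 and within replicates 3 and 4 it was -0.52, with adjusted p of 0.211 and 0.297. With the pair as a block it passed (adjusted p = 0.049), and with the array set as a block it did not (-0.56, adjusted p = 0.16).

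Markers of the segment were low on some of the arrays with low Anxa5. The summed intensity of 7 initial segment markers was 34500 in sham replicate 1, against 58100 to 60300 on the other sham arrays. It was 15300 and 11900 in 12 h replicates 1 and 2, against 55700 and 51000 in 12 h replicates 3 and 4, of which replicate 4 had a low Anxa5 value too, 10.43. At 18 h it was 37100 to 48100. The part of this in the Anxa5 values was not tested.

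**Figure D3:**
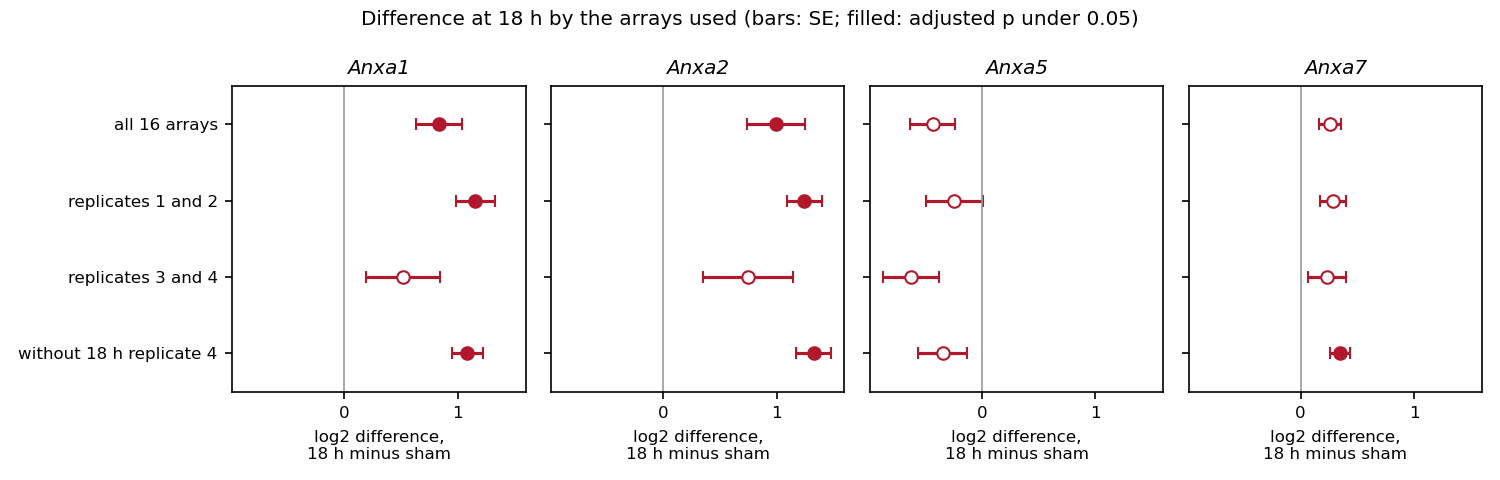
Log2 difference of Anxa1, Anxa2, Anxa5 and Anxa7 at 18 h from sham (x axis) by the arrays used (y axis): all 16, replicates 1 and 2 of each group, replicates 3 and 4 of each group, and all but 18 h replicate 4. Bars are ± 1 SE of the limma fit, and filled points have an adjusted p under 0.05. Anxa2 ranged from 0.75 to 1.33 and Anxa1 from 0.52 to 1.15 over these fits, and Anxa5 was below 0 in each.

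Anxa3, Anxa4 and Anxa6 were called in no comparison. Anxa3, abundant in neutrophil granule membranes, read 7.67, 7.26, 8.08 and 8.40 in sham, 8.79, 7.82, 7.57 and 7.87 at 6 h, 7.85, 7.91, 7.58 and 7.54 at 12 h and 7.44, 7.60, 7.59 and 7.10 at 18 h (1367974_at). The sham and 6 h arrays spread widely, and 6 h replicate 1 was the highest of all. The 18 h difference was -0.42 ± 0.26 (adjusted p = 0.394), made up of 0.05 within replicates 1 and 2 and -0.89 within replicates 3 and 4 (adjusted p = 0.0558). At 6 h the pairs pointed in opposite directions, 0.84 in replicates 1 and 2 and -0.52 in replicates 3 and 4, neither of them called. The other 3 probe sets of Anxa3 lay below the minimum for testing.

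Anxa4, a member known from secretory epithelia, ranged from 9.16 to 9.62 in sham, 8.84 to 9.59 at 6 h, 9.09 to 9.64 at 12 h and 9.04 to 9.88 at 18 h (1389305_at). Replicates 3 and 4 were 0.44 ± 0.08 higher than replicates 1 and 2 with the group in the model (adjusted p = 0.00129), the largest such difference among the 8 genes and the single one called. The 18 h difference from sham was 0.14 ± 0.20 (adjusted p = 0.766). The second probe set, 1368908_at, differed from sham by -0.04 ± 0.11 at 18 h.

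Anxa6, the largest member with a duplicated core, held sham values of 9.29 to 9.42 (1387673_a_at). It ranged from 8.84 to 9.47 at 6 h, 9.03 to 9.55 at 12 h and 9.25 to 9.63 at 18 h. Its differences from sham were -0.18, -0.07 and 0.03 at the successive times, each with an SE of 0.15. The 95% interval at 18 h ran from -0.30 to 0.35, so changes within these limits in either direction were not excluded.

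S100 partners of the annexins were measured on the same arrays. All 4 listed genes were tested, and 0 were called against sham at any time. Of all tested probe sets, 0.283% were called at 6 h, 7.86% at 12 h and 10.2% at 18 h. S100a10, the partner of Anxa2, read 9.17, 10.04, 9.68 and 9.83 in sham and 10.29, 10.24, 10.45 and 9.44 at 18 h. As for Anxa2, 18 h replicate 4 was the lowest of its group, and the difference of 0.43 ± 0.24 did not pass (adjusted p = 0.323; 0.0675 without that array). S100a11, a partner of Anxa1, differed from sham by 0.39 ± 0.19 at 18 h (adjusted p = 0.255). S100a4 differed by 0.88 ± 0.51 (adjusted p = 0.349).

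S100a6, a partner of Anxa11, read 10.26, 10.07, 10.24 and 10.21 in sham and 9.85, 9.77, 9.83 and 9.89 at 6 h. At 18 h it read 10.95, 10.28, 10.96 and 10.69, above every sham and 6 h array. It was 0.89 ± 0.20 higher at 18 h than at 6 h (adjusted p = 0.014; 0.0241 without 18 h replicate 4), while the difference from sham, 0.52 ± 0.20, was not called (adjusted p = 0.125). Within the pairs of replicates the 18 h to 6 h difference was 0.81 and 0.96, with adjusted p of 0.147 and 0.137.

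Among other annexins, Anxa9 was the single tested gene of the 4 listed. It differed from sham by -0.91 ± 0.39 at 18 h (adjusted p = 0.175; -1.20 with adjusted p = 0.0607 without 18 h replicate 4). From 6 to 18 h the difference was -1.28 (adjusted p = 0.0578), and -1.57 without that array (adjusted p = 0.0196). Anxa8 stayed under 5 on all arrays, with a highest value of 4.92 in 18 h replicate 3. No probe set carried the symbol Anxa10 or Anxa13, or that of any of the 7 formyl peptide receptors listed. Of 23 genes for membrane repair, plasminogen activation, phospholipase A2 and other partners, 20 were on the array and 16 were tested. Of the 16, 0 were called against sham at any time. The shares over all tested probe sets were 0.283% at 6 h, 7.86% at 12 h and 10.2% at 18 h. Plat, the tissue plasminogen activator that Anxa2 binds, was 1.31 ± 0.42 above sham at 12 h and 1.25 ± 0.42 at 18 h (adjusted p = 0.0764 and 0.0763). It was singled out after its values were seen, and its 18 h difference passed without 18 h replicate 4 (1.52, adjusted p = 0.0382). Within replicates 1 and 2 its 12 h and 18 h differences were 2.05 and 1.58 (adjusted p = 0.00936 and 0.011), and within replicates 3 and 4 they were 0.56 and 0.92 (adjusted p = 0.327 and 0.109).

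Copines are another family that binds phospholipids with calcium, through C2 domains. Of the 9 listed, 8 were on the array and 3 were tested, and Cpne8 was called at every time. It read 4.14, 4.62, 4.37 and 4.45 in sham, under the minimum level of 5. At 6 h it read 6.08, 6.51, 6.42 and 6.02, at 12 h 7.12, 7.17, 7.48 and 6.42, and at 18 h 7.77, 8.02, 7.85 and 6.44. Cpne8 reached the minimum level on ligated arrays alone. It was tested only because of them, so a rise from sham is partly built in by the filter. The calls of Cpne8 are therefore not independent support for a rise. All 12 ligated arrays lay above all sham arrays. Of all tested probe sets, 0.283% were called at 6 h, 7.86% at 12 h and 10.2% at 18 h. The differences of Cpne8 from sham were 1.86 ± 0.30 at 6 h (adjusted p = 0.0188), 2.65 ± 0.30 at 12 h (adjusted p = 9.13e-05) and 3.13 ± 0.30 at 18 h (adjusted p = 1.74e-05). Within replicates 1 and 2 and within replicates 3 and 4, the 6 h difference was 1.91 and 1.81. Neither was called (adjusted p = 0.103 and 0.528). At 12 h these were 2.77 and 2.54 (adjusted p = 0.00454 and 0.0554). At 18 h the difference was 3.52 within replicates 1 and 2, 2.73 within replicates 3 and 4, and 3.49 without 18 h replicate 4.

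**Figure D4:**
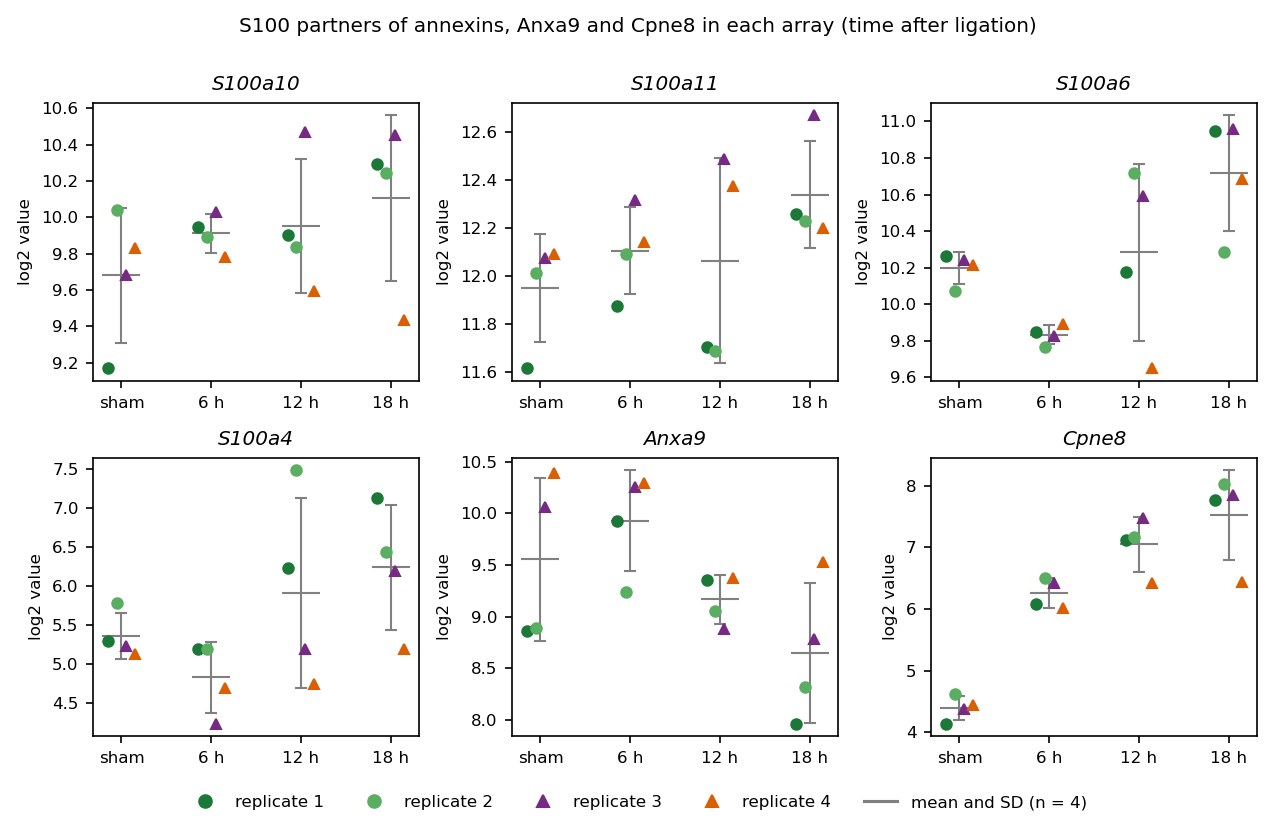
Log2 value (y axis, a separate scale for each gene) of S100a10, S100a11, S100a6, S100a4, Anxa9 and Cpne8 in sham tissue and at 6, 12 and 18 h (x axis). Each point is 1 array, circles for replicates 1 and 2 and triangles for replicates 3 and 4, and the grey bar is the mean ± SD of 4 arrays. Cpne8 rises from 4.14 to 4.62 in sham to 6.44 to 8.02 at 18 h.

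The genes whose values over the 16 arrays were most like those of Anxa1 and Anxa2 were chosen among 8300 genes by Pearson's r, after the mean of each pair of replicates was removed. For Anxa1 they were Pvr, an adhesion receptor of the nectin family (r = 0.939), Vmp1, a membrane protein of autophagy (r = 0.938), and Pprc1, a coactivator (r = 0.936). Their Spearman rho with Anxa1 was 0.832, 0.682 and 0.862. For Anxa2 they were Ddx39a, an RNA helicase (r = 0.957), Ywhah, a 14-3-3 protein (r = 0.952), and Tubb6, a beta-tubulin (r = 0.946), with rho of 0.909, 0.841 and 0.897. All points come from the same 16 arrays and share their spread, including the low 18 h replicate 4. Annexins and genes with placeholder symbols were left out of the candidates. Anxa1 and Anxa2 correlated with each other at r = 0.91. The 18 h differences from sham of the genes chosen were 1.75 for Pvr, 0.64 for Vmp1, 1.01 for Pprc1, 0.80 for Ddx39a, 0.84 for Ywhah and 1.72 for Tubb6. They were chosen for following Anxa1 or Anxa2 on these arrays, so a rise at 18 h is built in by the choice.

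Annexins are made by many cell types, and in whole tissue fewer cells of a type and less RNA per cell cannot be told apart. Of 12 initial segment markers listed, 7 were on the array, and 6 of them (Ros1, Cst8, Cst11, Cst12, Ggt1 and Penk) had means of 10.43 to 13.63 over the 16 arrays. All 6 were below their sham means on 12 h replicates 1 and 2. There Cst12 read 10.29 and 9.14 and Penk 10.69 and 10.19, against sham means of 12.70 and 13.79. The other, Etv5, fell from a mean of 9.46 in sham to 3.82 at 12 h and 5.10 at 18 h. The median difference of the 7 markers from sham at 12 h was -1.18. Etv5 and Ggt1 were the 2 of 7 called lower at 12 and 18 h. Of all tested probe sets, 7.86% were called at 12 h and 10.2% at 18 h, with 5.2% higher and 4.96% lower at 18 h. The number called in each list of markers has to be read against that. Epithelial markers summed to 17600 to 20600 in sham and 19500 to 24600 at 18 h, and 2 of 10, Cldn3 and Elf3, were called higher at 12 and 18 h. Without 18 h replicate 4 the call of Cldn3 at 18 h was lost (adjusted p = 0.115), and within either pair of replicates it was not called at 12 or 18 h. Markers of macrophages, which also express Anxa1 and Anxa2, summed to 1780 to 2950 in sham and 1820 to 5090 at 18 h. Of 9 tested, 1 was called higher at 18 h, Cd14 by 1.92 ± 0.46 (adjusted p = 0.0158). Its difference was 2.54 within replicates 1 and 2 (adjusted p = 0.0217) and 1.30 within replicates 3 and 4 (adjusted p = 0.239), and Adgre1, Cd163 and Cx3cr1 were under 5 on all arrays. The macrophage sum followed the pairs of replicates as well. At 12 h it was 4630 and 5490 in replicates 1 and 2 and 2010 and 1050 in replicates 3 and 4. At 18 h it was 4600 and 5090 in replicates 1 and 2 and 2430 and 1820 in replicates 3 and 4. Anxa1 and Anxa2 in 18 h replicate 3, at 11.94 and 10.81, lay between their values in replicates 1 and 2. In 18 h replicate 4, which had the lowest macrophage sum of the group, they were lowest too, at 10.91 and 9.53. That array was also lowest of its group in the initial segment, epithelial and endothelial sums, at 37100, 19500 and 406. In 12 h replicate 4, with the lowest macrophage sum of the 16 arrays, Anxa2 was lowest of its group at 9.87. Anxa1 was not, at 11.20 against 10.89 in 12 h replicate 1.

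Endothelial markers summed to 273 to 343 in sham and 406 to 541 at 18 h, Kdr alone of 2 tested being called (0.95 ± 0.21, adjusted p = 0.00876; 0.0845 within replicates 1 and 2 and 0.0381 within replicates 3 and 4), and Pecam1, Tek, Vwf and Tie1 were under 5 on all arrays. Fibroblast markers, of which 0 of 8 tested were called, summed to 18100 to 29600 in replicates 1 and 2 and 7210 to 12700 in replicates 3 and 4 over all groups. Neutrophil markers Csf3r, Cxcr2, Itgam and Np4 were under 5 on all arrays, and S100a8 and S100a9 reached 8.75 and 10.36 in 12 h replicate 2. All 3 tested sperm markers were called lower at 12 and 18 h. The part of these cells in the differences of Anxa1, Anxa2 and Plat was not tested.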

How the data were processed

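The deposited log2 values, 1 per probe set and array, were used as given. They were made with GCRMA, per the submitters' processing notes, on Affymetrix rat arrays with biotin-labelled RNA, per the labels; no version of it was found in those notes. Of 31099 probe sets, 57 controls were left out, and 20826 of the rest had 1 gene symbol. A probe set was tested if it reached 5 in at least 4 of 16 arrays. Differences were estimated in R 4.3.3 with limma 3.58.1 (statmod 1.5.0 for array weights), 1 fit of 4 group means over all arrays, a script tested on simulated data. P-values were Benjamini-Hochberg adjusted over all 13410 tested probe sets. The members and lists were chosen with earlier results of these data known. Named genes were all members, list genes called against sham, and the 3 genes most like each called member; S100a10, S100a11, S100a6, S100a4, Anxa8, Anxa9, Plat and marker genes were added after their values were seen. Marker sums add linear intensities of lead probe sets. Fits within replicate pairs, with blocks, other normalizations and filters, and each array left out were the alternatives. Promoters come from RefSeq (GRCr8). The number of arrays limits the precision.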

Additional observations from a re-analysis of the deposited data

Results flagged for a closer look

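The Anxa5 value of sham replicate 1, 10.49, lay far from the other sham arrays, the nearest of which was at 11.16. That gap was 0.861 of the range of the group, and it was the 1 such array among 32 group and gene combinations examined, where chance gives about 1 in 20. Effects of ligation that differed between times were those of Anxa1, 0.86 higher at 18 h than at 6 h, and of Anxa2, 0.93 higher, both by a test of the difference itself on the log2 scale.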

How the results depend on the processing

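Of 1440 differences of the 8 annexins recomputed under the alternatives, 1385 kept their side of the threshold, 32 lost a call, 23 gained one, 0 changed sign with a call, and 52 changed sign while called in neither fit. Annexins called against sham were 0 at 18 h (2 as reported) with no minimum level, with only the 2 groups compared, within replicates 3 and 4 or at an adjusted p under 0.01, and likewise 0 for 18 h against 6 h. At 12 h they were 1 with only the 2 groups compared and within replicates 1 and 2, and 2 with the replicate block, the pair block or array weights (0 as reported). For 12 h against 6 h they were 2 with the replicate block or array weights (0 as reported). Leaving out 1 array gave 0 to 1 annexins at 12 h, 0 to 3 at 18 h, 0 to 1 for 12 h against 6 h, 0 to 1 for 18 h against 12 h and 0 to 3 for 18 h against 6 h.

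Probe sets called at 6 h (38 as reported) numbered 7 with no minimum level, 15 with only the 2 groups compared, 4 within replicates 1 and 2, 3 within replicates 3 and 4, 104 with array weights and 6 at an adjusted p under 0.01. At 12 h (1054) they numbered, in the same order, 653, 477, 617, 572, 2426 and 440, with 1709 under the replicate block and 1735 under the pair block. At 18 h (1362) they were 827 with only the 2 groups compared, 2165 and 2179 under the blocks, 828 within replicates 1 and 2, 2111 with array weights and 638 at an adjusted p under 0.01. For 12 h against 6 h (574) they were 277 with no minimum level, 323 with only the 2 groups compared, 1166 and 1215 under the blocks, 115 within replicates 3 and 4, 1471 with array weights and 162 at an adjusted p under 0.01. For 18 h against 12 h (0) they were 2 and 2 under the blocks, 110 within replicates 1 and 2, 1 within replicates 3 and 4, and 56 with array weights. For 18 h against 6 h (1057) they were 642 with no minimum level, 1927 and 2030 under the blocks, 621 within replicates 1 and 2, 460 within replicates 3 and 4 and 439 at an adjusted p under 0.01. Leaving out 1 array gave 7 to 48 at 6 h, 626 to 1132 at 12 h, 879 to 1426 at 18 h, 245 to 625 for 12 h against 6 h, 0 to 53 for 18 h against 12 h and 661 to 1159 for 18 h against 6 h. A smaller number of arrays or a larger number of tests is part of several of these alternatives; otherwise the cause was not tested.

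Arrays with the same replicate number had deviations from their group means that correlated at 0.00651 to 0.556 (median 0.414), and arrays of the same pair with different numbers at a median of 0.385, so the numbers were not taken to pair the arrays. Under the replicate block Anxa2 and Anxa5 passed at 12 h against sham (adjusted p = 0.0216 and 0.0338) and at 12 h against 6 h (0.0438 and 0.0476), and Anxa4 passed at 18 h against 6 h (0.0428). With the array set as the block these did not pass (0.0625 and 0.16, 0.0969 and 0.184, and 0.227). The median difference of all tested probe sets moved by under 0.1 under every normalization tried. It was small in the main fit too, and these normalizations bring the arrays to a common level. This therefore says nothing about the annexin differences. The number of arrays, 4 a group, limits what can be seen.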
